A study of Mus musculus with 6 samples.

Results

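Endothelial genes of sinusoidal and arterial vessels were examined in unfractionated bone marrow from SCID/Bg mice, which lack mature T and B lymphocytes. The 33 genes were listed as markers of vascular endothelium and not by a threshold on their values, although earlier results of these data were known when they were listed. All 33 had a probe set that names only that gene, of 18193 genes so measured, and each gene is represented by its probe set of highest mean. Marrow of 3 untreated mice was compared with marrow of 3 mice given NOX-A12, an L-RNA aptamer (Spiegelmer) that neutralises the chemokine CXCL12. All 6 mice were SCID/Bg, and each was hybridised to 1 Affymetrix Mouse Genome 430 2.0 array. Dose, schedule, age, and whether the mice carried tumour cells is not given in the sources used here.

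Marrow sinusoids are thin-walled, fenestrated venous vessels through which blood cells leave the marrow, and their endothelium carries scavenger receptors such as stabilin-2. Arteries and arterioles have a tighter wall and a separate programme that includes the transcription factor SOX17 and the ligand ephrin-B2. The endothelium of both vessel types makes CXCL12, alongside the reticular stromal cells that wrap the sinusoids.

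Promoter sequences are shown for 5 genes, picked by their changes from the 18 that had a sequence. Adgrf5, Stab2, Cldn5 and Esm1 were lower in every treated mouse, and Stab1, a paralogue of Stab2, was not. Others, such as Plvap and Cdh5, had no sequence available. No expression result below rests on these sequences. Each run is the 250 bases upstream of the gene's first listed start in RefSeq (build GRCm38.p6), read 5′ to 3′ on the gene's strand. Capitals mark AGGAAG or its reverse complement CTTCCT, a core bound by ETS factors such as ERG.
Adgrf5 (chr17:43360181-43360430, plus strand): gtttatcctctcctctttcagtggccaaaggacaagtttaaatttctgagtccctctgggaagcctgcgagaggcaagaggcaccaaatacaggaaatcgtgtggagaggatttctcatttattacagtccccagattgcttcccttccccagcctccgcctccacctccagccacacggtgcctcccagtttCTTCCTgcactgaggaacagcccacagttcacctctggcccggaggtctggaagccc
Stab2 (chr10:87007943-87008192, minus strand): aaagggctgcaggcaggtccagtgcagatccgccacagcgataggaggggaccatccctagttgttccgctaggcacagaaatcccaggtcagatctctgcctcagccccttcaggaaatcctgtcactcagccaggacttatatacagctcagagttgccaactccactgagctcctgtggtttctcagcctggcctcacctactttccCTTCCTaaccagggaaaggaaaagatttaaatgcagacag
Stab1 (chr14:31168642-31168891, minus strand): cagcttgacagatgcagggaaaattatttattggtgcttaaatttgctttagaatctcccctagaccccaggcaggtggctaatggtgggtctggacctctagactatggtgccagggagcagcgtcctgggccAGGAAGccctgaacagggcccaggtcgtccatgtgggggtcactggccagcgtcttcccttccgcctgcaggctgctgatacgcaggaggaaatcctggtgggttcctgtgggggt
Cldn5 (chr16:18776597-18776846, plus strand): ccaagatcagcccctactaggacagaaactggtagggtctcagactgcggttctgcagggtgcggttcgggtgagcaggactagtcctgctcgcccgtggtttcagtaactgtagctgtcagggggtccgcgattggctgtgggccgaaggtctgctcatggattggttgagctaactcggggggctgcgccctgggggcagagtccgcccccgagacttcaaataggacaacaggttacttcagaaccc
Esm1 (chr13:113209409-113209658, plus strand): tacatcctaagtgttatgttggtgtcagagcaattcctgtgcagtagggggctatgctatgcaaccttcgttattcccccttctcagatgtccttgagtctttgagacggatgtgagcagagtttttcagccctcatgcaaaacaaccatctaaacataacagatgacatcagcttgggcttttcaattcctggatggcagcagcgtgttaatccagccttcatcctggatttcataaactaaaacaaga

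The promoter table held 18 of the 33 genes, with 23 start sites. AGGAAG, searched on both strands, was present in 12 of those 23 windows (52.2%), against 29.5% of all 32851 windows of the same length. Among the genes shown, Adgrf5, Stab2 and Stab1 each held 1 copy, so the motif was present both in genes that were lower and in the gene that was not. No copy lay in the Cldn5 and Esm1 windows. AACAAT, a core bound by SOX factors, searched on both strands, was present in 3 of the 23 windows (13.0%) and in 9.42% of all windows; it lay in windows of Emcn, Erg and Tek. By their letters a copy of one motif cannot overlap a copy of the other, whereas 2 copies of AGGAAG, or AACAAT and its reverse complement ATTGTT, can; a window with overlapping copies counts once. These matches describe letters in a window, and no measurement of binding was made here.

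The arrays carried the signal of marrow. All 11 measured genes of a list of marrow blood-cell markers, such as the granule genes Mpo and Camp, were brighter than the median probe set. Array medians lay between intensities of 44.8 and 45.6. Untreated mouse 3 stood apart: across probe sets its array correlated with the other 5 at 0.982 to 0.985, against 0.991 to 0.994 among those 5. This mouse also had the highest value of the 6 for 18 of the 33 endothelial genes. List medians and the changes of genes given mouse by mouse are therefore also printed without it. Exceptions are the medians of the secreted and adaptor groups, not recomputed without it, and Gja5, given by intensities alone. In bulk marrow, fewer endothelial cells and less RNA per endothelial cell cannot be told apart.

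Most of the endothelial genes were lower in treated than in untreated marrow, by small amounts. The mean was lower for 29 of 33 genes and higher for 4, where 52.8% of all genes were lower and 47.2% higher. The median log2 change, treated minus untreated on the log2(intensity + 16) scale used throughout, was -0.15, against -0.01 over all genes. For 10 genes all 3 treated mice lay below all 3 untreated mice, where 6.68% of all genes did so, and 0 genes lay wholly above, where 3.92% did so. At an unadjusted p under 0.05 in limma, 9 genes were lower, against 3.53% of all genes, and 0 were higher, against 1.78%. After Benjamini-Hochberg adjustment over the 45037 probe sets, 0 of the 33 genes passed at 0.05 (limma adjusted p from 0.926 to 1.00), and 0 probe sets passed anywhere on the array, so no single gene is called changed. Without untreated mouse 3, 26 genes were lower and 7 higher, the median was -0.17, and 10 were lower at an unadjusted limma p under 0.05. Without NOX-A12 mouse 2 there were likewise 7 higher. Shares of all genes with a mouse left out were not computed. The probe sets of 25 genes were brighter than the median of all probe sets on average, and those of 8 were dimmer: Tie1, Ephb4, Sox7, Sox17, Clec14a, Rasip1, Ecscr and Cyyr1.

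**Figure D1:**
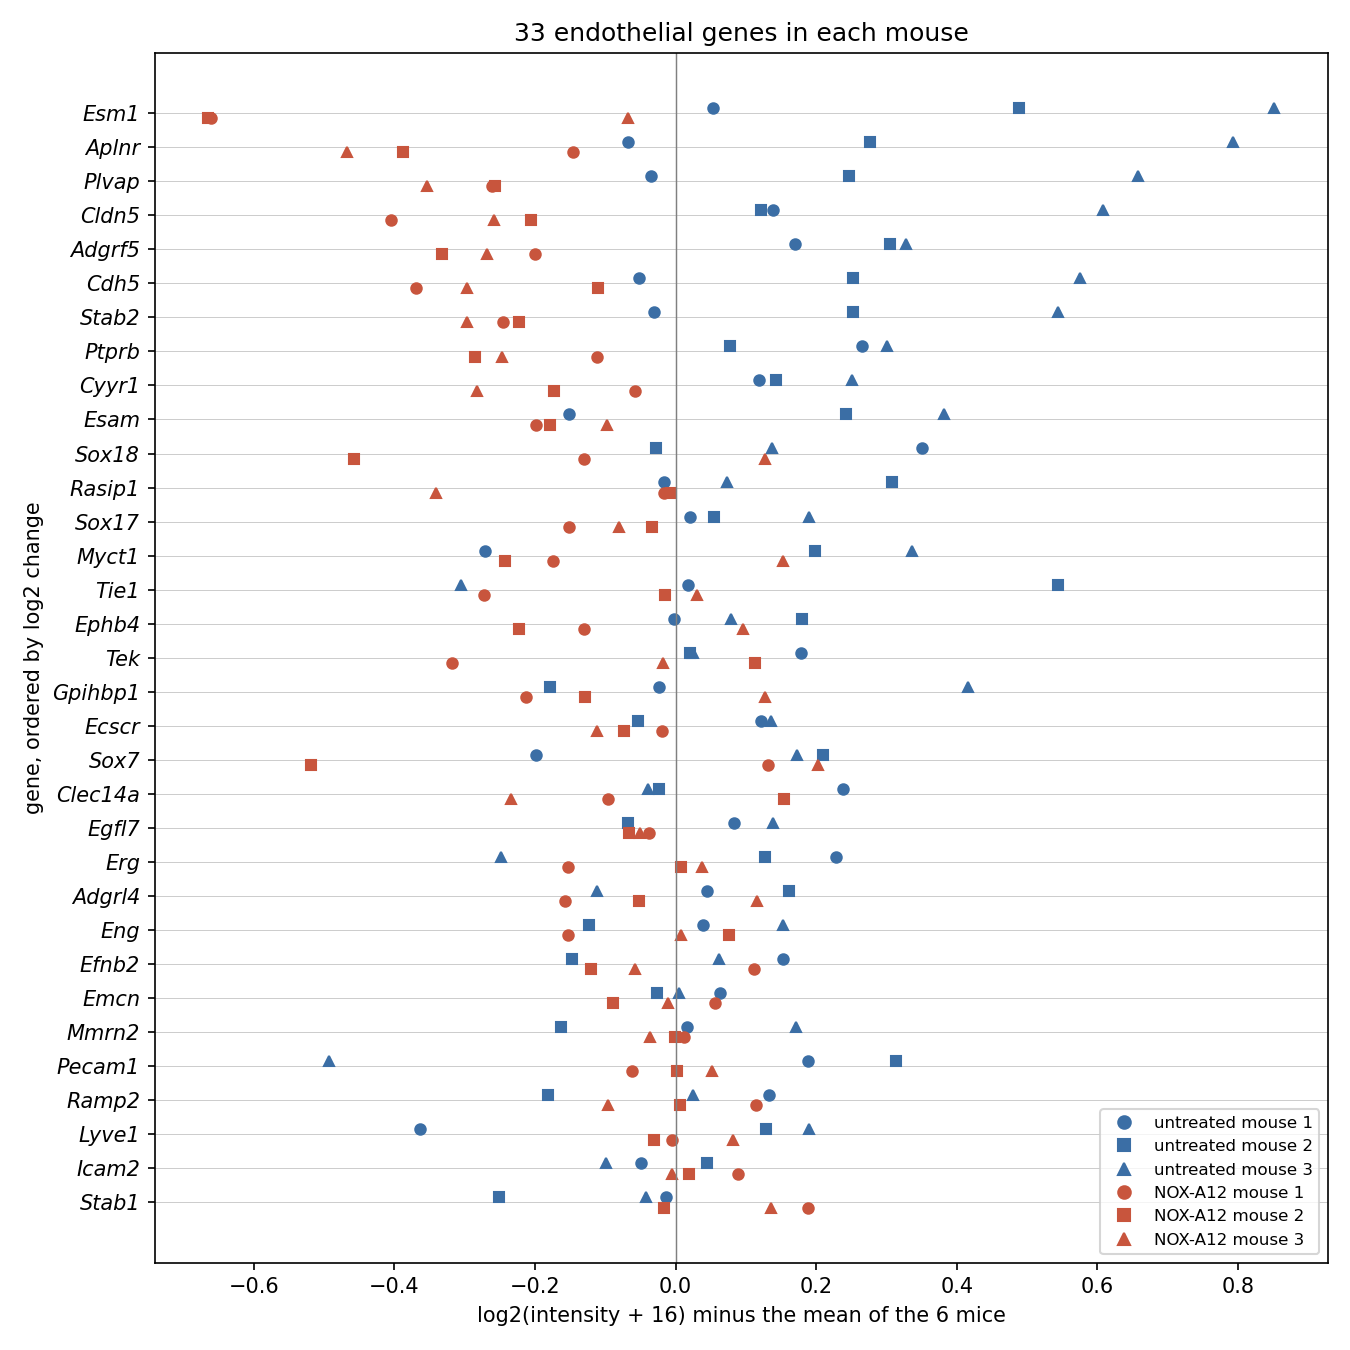
Each row is 1 of the 33 endothelial genes, ordered by log2 change, and each symbol is 1 mouse, placed by its log2(intensity + 16) minus the mean of the 6 mice. In the top 9 rows, Esm1 to Cyyr1, every NOX-A12 mouse lies to the left of every untreated mouse, and untreated mouse 3 lies farthest right.

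The scavenger receptors of sinusoidal endothelium went different ways. Stab2, which encodes the stabilin-2 receptor that clears hyaluronan and other waste from blood, had intensities of 140.2, 174 and 217 in untreated mice 1 to 3 and 119, 121 and 114 in treated mice 1 to 3. The groups did not overlap, and the treated mice lay close together at 118 ± 3.47 against 177 ± 38.3 in untreated mice (SD, n = 3 each). Its log2 change was -0.51 ± 0.15 (SE; 95% interval -0.86 to -0.16), or 0.702 times the untreated level, and -0.37 ± 0.11 without untreated mouse 3. Stab1, the paralogue that macrophages also express, gave 108, 89.2 and 106 in untreated and 127, 108 and 122 in treated mice. Treated mice 1 and 3 lay above all untreated mice, and treated mouse 2 lay just below untreated mouse 1. Its change was 0.20 ± 0.11 (95% interval -0.05 to 0.46), 0.23 without untreated mouse 3 and 0.13 without untreated mouse 2. Lyve1, a hyaluronan receptor of lymphatic and some sinusoidal endothelium and of resident macrophages, ranged from 86.9 to 135 in untreated and from 114 to 124 in treated mice, a change of 0.03 ± 0.16, and its other probe set gave -0.07. The difference between Stab2 and its relatives was not tested.

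Genes of the vessel surface and its fenestrae included Plvap, which forms the diaphragms of fenestrated endothelium. Plvap measured 111, 138 and 189 in untreated and 92.5, 92.8 and 85.8 in treated mice. Every treated mouse was below every untreated mouse, and untreated mouse 3 was far above the rest. The log2 change was -0.58 ± 0.17, and -0.40 ± 0.12 without that mouse. Gpihbp1, which anchors lipoprotein lipase in capillaries, gave -0.14 ± 0.17, with overlapping groups, and 0.03 without untreated mouse 3.

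Of the 6 genes of junctions and surface adhesion, 5 had a lower mean, where 52.8% of all genes did. Cldn5 and Cdh5 were lower at an unadjusted limma p under 0.05, as were 3.53% of all genes. Cldn5, the main claudin of endothelial tight junctions, measured 59.95, 59.0 and 89.1 in untreated and 36.1, 43.8 and 41.7 in treated mice. The groups did not overlap, at a log2 change of -0.58 ± 0.15, and -0.42 ± 0.10 without untreated mouse 3. Cdh5, which encodes VE-cadherin of adherens junctions, measured 155, 195 and 248 in untreated and 121, 148 and 128 in treated mice. Its groups were narrowly apart, between untreated mouse 1 and treated mouse 2, with a change of -0.52 ± 0.17, and -0.36 ± 0.14 without untreated mouse 3. A second, dim probe set of Cdh5 gave 0.08 ± 0.12. Esam, an adhesion molecule of endothelial junctions that stem cells and platelets also carry, gave -0.32 ± 0.15 with an overlap at untreated mouse 1, and -0.20 without untreated mouse 3.

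Pecam1, an adhesion molecule of endothelium, platelets and leukocytes, measured 60.5, 67.5 and 31.7 in untreated and 48.3, 51.3 and 53.7 in treated mice. Untreated mouse 3 was the lowest of the 6 mice, and the change was -0.01 ± 0.20 with it and -0.25 ± 0.10 without it. Quantile normalization turned the value to 0.0034. Emcn, a sialomucin of venous endothelium and stem cells, was level at 57.0 ± 2.32 and 55.7 ± 3.61 (SD, n = 3 each), with a change of -0.03 ± 0.09 (95% interval -0.24 to 0.18). Icam2, an integrin ligand shared by endothelium and leukocytes, gave 0.07 ± 0.09.

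Of the 10 receptors and ligands, 9 were lower, where 52.8% of all genes were. An unadjusted limma p under 0.05 was reached by 3 of them, all lower, against 3.53% of all genes. Adgrf5, an adhesion G-protein-coupled receptor of endothelium, measured 94.2, 105 and 107 in untreated and 69.3, 61.8 and 65.3 in treated mice. Its groups were the most clearly apart of the 33 genes by unadjusted p, at -0.53 ± 0.09 (95% interval -0.75 to -0.31), and the change was -0.50 without untreated mouse 3. Its limma adjusted p was 0.926. The other probe set gave -0.75 ± 0.17, again with no overlap. Ptprb, the vascular phosphatase VE-PTP that acts on TIE2 and VE-cadherin, measured 89.8, 76.9 and 92.4 in untreated and 65.5, 56.3 and 58.2 in treated mice. It was lower in all treated mice, by -0.43 ± 0.10 (-0.39 without untreated mouse 3), while its other probe sets gave -0.06 and -0.15.

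Aplnr, the apelin receptor of venous and sprouting endothelium, spread widely among untreated mice, at 166, 215 and 314, and measured 156, 130 and 122 in treated mice. The groups came close at untreated mouse 1 and treated mouse 1. The log2 change was -0.67 ± 0.22, -0.44 ± 0.15 without untreated mouse 3, and -0.26 ± 0.10 at the other probe set, which did not overlap either. The angiopoietin receptor gene Tek, which stem cells also express, gave -0.15 ± 0.13 (-0.03 without NOX-A12 mouse 1), and its partner Tie1 gave -0.17 ± 0.21 at intensities from 11.1 to 32.8. Ephb4, the receptor that marks veins, gave -0.17 ± 0.11 at a dim probe set (-0.10 without NOX-A12 mouse 2), and its arterial ligand gene Efnb2 gave -0.04 ± 0.12. Efnb2 measured 114, 89.5 and 106 in untreated and 110.2, 91.5 and 96.3 in treated mice, with complete overlap, and the change was -0.03 without untreated mouse 3. Eng, a co-receptor for transforming growth factor beta and related ligands, gave -0.05 ± 0.11. Adgrl4, an adhesion receptor of endothelium, gave -0.06 ± 0.12, and Ramp2, the partner of the adrenomedullin receptor, 0.02 ± 0.12.

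Transcription factor genes were lower in mean, where 52.8% of all genes were, with 0 of 4 at an unadjusted limma p under 0.05. Sox17, the arterial factor, measured 30.8, 31.9 and 36.6 in untreated and 25.5, 29.0 and 27.6 in treated mice. These groups did not overlap, but the probe set was dim and the change small, at -0.18 ± 0.09 (-0.13 without untreated mouse 3), and its other probe set overlapped at -0.07 ± 0.14. Its relatives Sox18 and Sox7, which act with SOX17 in vessel formation, gave -0.31 ± 0.17 (-0.15 without NOX-A12 mouse 2) and -0.12 ± 0.21. Erg, an ETS factor that maintains endothelial identity and is also expressed by stem cells and megakaryocytes, gave -0.07 ± 0.14, and -0.21 ± 0.10 without untreated mouse 3.

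The largest difference in this set of genes was in a secreted product. Esm1, which encodes endocan, a proteoglycan released by activated and sprouting endothelium, measured 191, 264 and 344 in untreated and 110.04, 109.7 and 174 in treated mice. Every treated mouse was below every untreated mouse, although treated mouse 3 came near untreated mouse 1. The log2 change was -0.93 ± 0.24, or 0.525 times the untreated level (95% interval -1.49 to -0.36 on the log2 scale), and -0.74 ± 0.23 without untreated mouse 3. The limma adjusted p was 0.926.

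The secreted and matrix-binding group, which includes Esm1, had a median of -0.11. The group of adaptors and small membrane proteins had a median of -0.21, against -0.01 over all genes. All 4 genes of each group had a lower mean, where 52.8% of all genes did. In each group 1 gene was lower at an unadjusted limma p under 0.05, where 3.53% of all genes were. Egfl7, a secreted factor of vessel assembly, gave -0.10 ± 0.09 (-0.06 without untreated mouse 3) at the probe set used, which is of a type prone to cross-hybridisation, and -0.43 ± 0.09 with no overlap at a dim one. Mmrn2, a matrix protein that binds CLEC14A, gave -0.02 ± 0.11 at a probe set of the same type and -0.37 ± 0.12 at another, which did not overlap. Clec14a itself was dim and gave -0.12 ± 0.14 (-0.03 without untreated mouse 1 or without NOX-A12 mouse 3). Cyyr1, a small membrane protein gene, measured 47.8, 48.9 and 54.0 in untreated and 40.5, 36.2 and 32.4 in treated mice. It was lower in all treated mice, by -0.34 ± 0.10 (-0.30 without untreated mouse 3). Rasip1, a RAS-interacting protein required for vessel lumens, gave -0.24 ± 0.14 at a dim probe set (-0.13 without NOX-A12 mouse 3), Myct1, an endothelial and stem-cell membrane protein gene, gave -0.18 ± 0.18 (-0.05 without untreated mouse 3), and Ecscr, a regulator of endothelial migration, gave -0.14 ± 0.10.

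**Figure D2:**
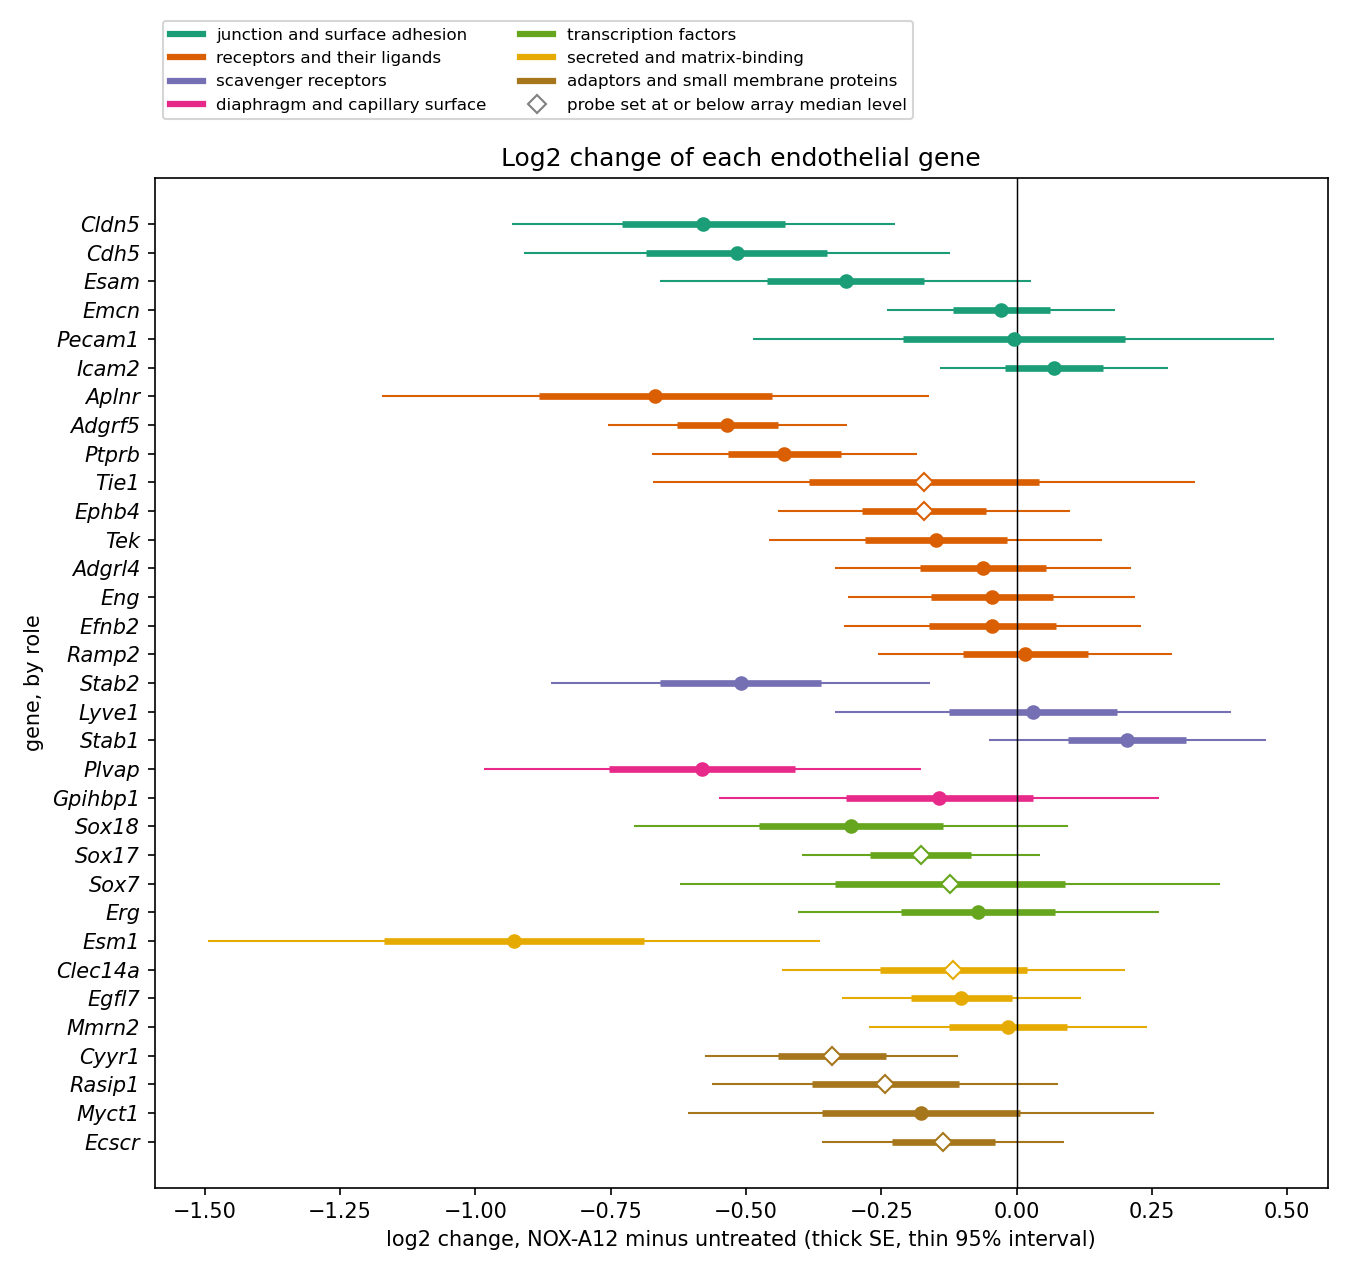
Each point is the log2 change of 1 endothelial gene, NOX-A12 minus untreated, grouped by role; thick bars are the SE, thin bars the 95% interval, and open diamonds mark probe sets at or below the median level. The intervals of 9 genes lie below 0, from Esm1 at -0.93 to Cyyr1 at -0.34, and the other 24 include 0.

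Sinusoidal and venous genes were then set beside arterial ones, with further markers added to each side. Of 9 sinusoidal and venous genes, 7 had a lower mean, with a median of -0.23 (-0.17 without untreated mouse 3). Among them Stab2, Plvap, Aplnr and Flt4 had an unadjusted limma p under 0.05. Over all genes, 52.8% had a lower mean and 3.53% were lower at such a p. Flt4, the VEGF-C receptor that sinusoids carry, measured 71.0, 79.6 and 81.7 in untreated and 53.7, 47.3 and 59.4 in treated mice, with no overlap and a change of -0.43 ± 0.11 (-0.40 without untreated mouse 3). Nr2f2, the transcription factor of venous identity, gave -0.23 ± 0.16 with overlap.

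Of 7 arterial genes, 5 had a lower mean, with a median of -0.07 (-0.09 without untreated mouse 3), and 0 had an unadjusted limma p under 0.05. The arterial side was poorly measured: probe sets of 5 of the 7 genes were at or below the median level, against 1 of the 9 on the sinusoidal and venous side. Gja4, a gap-junction gene of arterial endothelium, gave -0.07 ± 0.17 (0.07 without untreated mouse 3). Gja5, another, was at intensities of 2.58, 11.3 and 0.93 in untreated mice and is listed at exactly 1 in all 3 treated mice, a value that 781 to 861 probe sets have on each array. Dll4, a Notch ligand of arteries, was higher by 0.27 ± 0.15 with overlap. Bmx, 1 of the 2 above the median level, is also expressed by myeloid cells and gave 0.04 ± 0.14 (-0.09 without untreated mouse 3). The arterial median moved with single mice: it was -0.14 without untreated mouse 1, -0.15 without NOX-A12 mouse 1, 0.0046 without NOX-A12 mouse 2 and -0.03 without NOX-A12 mouse 3. Whether the sinusoidal and venous genes differ from the arterial genes in their change was not tested.

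**Figure D3:**
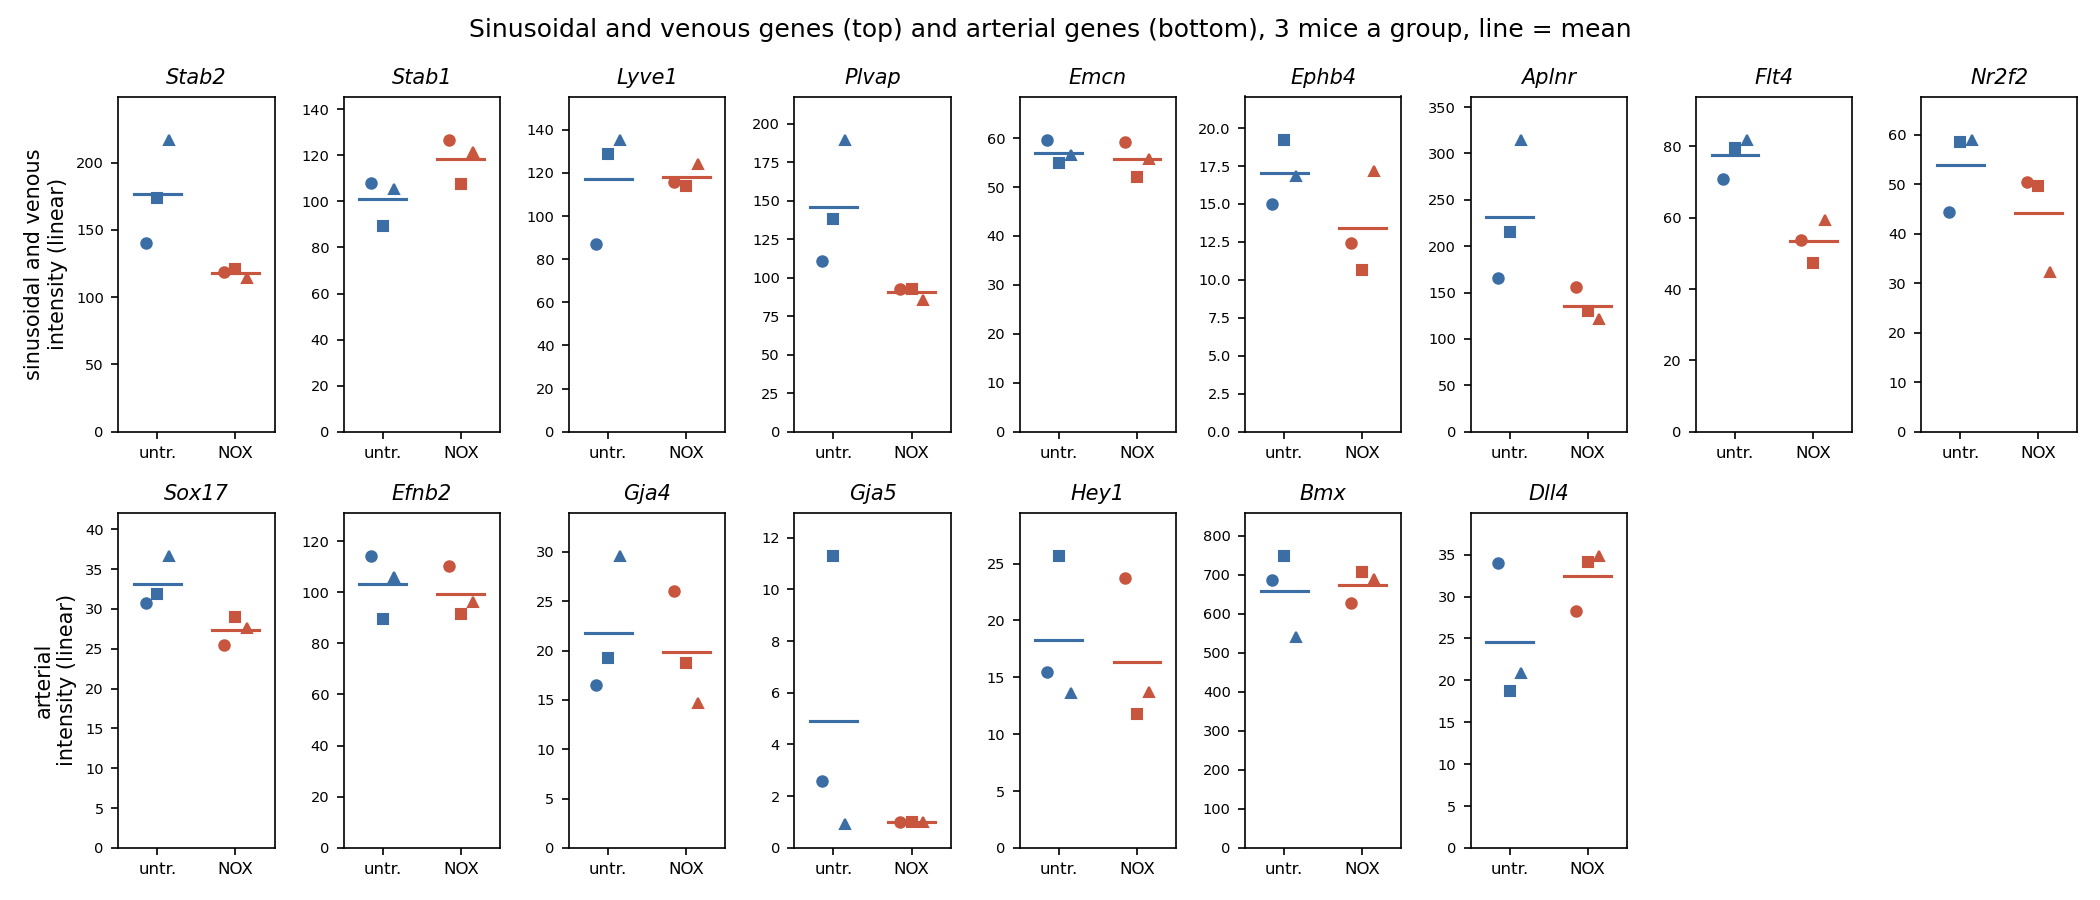
Each panel shows the linear intensity of 1 gene in the 3 untreated (untr., blue) and 3 NOX-A12 (NOX, red) mice, from 0, with circles for mouse 1, squares for mouse 2, triangles for mouse 3 and a line at the group mean. The groups are apart for Stab2, Plvap, Aplnr and Flt4 in the top row and for Sox17 alone in the bottom row, where most intensities are under 40.

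Other endothelial genes, outside the 33, leaned the same way with a smaller median. This list includes Flt4, Nr2f2 and every arterial gene but Sox17 and Efnb2, so these were already counted above. Of 35 measured, 27 were lower, where 52.8% of all genes were. With any 1 mouse left out, 21 to 25 were lower (21 without untreated mouse 1). At probe sets of second highest mean, where these existed, the genes did not lean lower. The median was -0.07 (-0.12 without untreated mouse 3), and 3 genes had an unadjusted limma p under 0.05. All treated mice lay below all untreated mice for 4 genes, these 3 and Nos3 at -0.16 ± 0.09. Of all genes, 3.53% were lower at such a p, and 6.68% had all treated mice below all untreated mice. Robo4, a guidance receptor that stabilises vessels, measured 58.0, 72.3 and 81.8 in untreated and 37.0, 43.4 and 39.5 in treated mice, a change of -0.62 ± 0.12 (-0.53 without untreated mouse 3). Kdr, the main VEGF receptor, measured 228, 241 and 248 in untreated and 186, 156 and 139 in treated mice, a change of -0.54 ± 0.12 (-0.51 without untreated mouse 3). The third with such a p was Flt4, given above. Next by unadjusted p came Rhoj, a GTPase of endothelium, at -0.42 ± 0.18, Selp, the P-selectin gene of endothelium and platelets, at -0.30 ± 0.16, and Cav1, the caveolin gene, at -0.30 ± 0.17 (-0.16 without untreated mouse 3). Vwf, shared by endothelium and megakaryocytes, gave -0.20 ± 0.17 (-0.10 without untreated mouse 3).

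Markers of other marrow cells moved beside the endothelial genes to different degrees, where 52.8% of all genes had a lower mean. Each of the 10 stromal reticular genes had a lower mean, and their median was -0.56 (-0.39 without untreated mouse 3). Their summed intensity was 10220 to 12210 in untreated and 8128 to 9226 in treated mice, with Pdgfra, a mesenchymal growth factor receptor, at -0.58 ± 0.09 (-0.59 without untreated mouse 3) and Igfbp5, which binds insulin-like growth factors, at -0.61 ± 0.11 (-0.57). The same sum over the 33 endothelial genes was 3846 to 4528 and 3389 to 3574, so the sums of both lists did not overlap between groups. Such sums weigh bright genes most: Cxcl12 of the stromal list averaged 3790 in untreated and 2887 in treated mice. Of 11 macrophage genes, 9 had lower means, the median was -0.15 (-0.12 without untreated mouse 3), with overlapping sums (10018 to 10565 and 9074 to 10214). Among them the tissue-macrophage receptor genes Siglec1 and Mertk gave -0.48 ± 0.12 and -0.45 ± 0.13. Their part in the endothelial result was not tested.

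Blood-cell lists that share genes or cell surface proteins with endothelium had medians nearer level than the stromal reticular and macrophage lists. On all arrays the megakaryocyte and platelet median was nonetheless further from level than that of the other endothelial genes, at -0.07. Pericyte, smooth muscle and skeletal muscle lists are given here as well. Over all genes, 52.8% had a lower mean. Of 8 megakaryocyte and platelet genes, 6 had lower means, with a median of -0.11 that was 0.01 without untreated mouse 3. Their sums ran from 12662 to 16192 in untreated and from 13487 to 15624 in treated mice, and Itga2b and Vwf, the members with the smallest p, gave -0.22 ± 0.22 and -0.20 ± 0.17. Of 8 stem and progenitor genes, 6 were lower, with a median of -0.06 (-0.01 without untreated mouse 3) and sums of 1689 to 1892 and 1634 to 1966; Mecom gave -0.24 ± 0.14 (-0.09 without untreated mouse 3) and Flt3 0.18 ± 0.11. Of 8 pericyte and smooth muscle genes, 2 were lower and 6 higher, with a median of 0.10 (0.13 without untreated mouse 3). Probe sets of 4 of these 8 were at or below the median level. Their sums were 892 to 1052 and 895 to 1158. Rgs5, a pericyte gene, gave -0.40 ± 0.16, and Acta2, a smooth muscle actin gene, 0.34 ± 0.16. Skeletal muscle genes, with 5 of 8 probe sets at or below the median level, had a median of -0.0034 (0.09 without untreated mouse 3). In this list 4 of 8 were lower, with sums of 335 to 382 and 352 to 396. Ckm gave 0.38 ± 0.14 and Atp2a1 0.11 ± 0.11. Of the 11 marrow blood-cell genes, 3 were lower and 8 higher, with a median of 0.03 (-0.02 without untreated mouse 3) and sums of 80448 to 88950 and 85144 to 87562. Vpreb1, the surrogate light chain gene of early B-lineage cells, measured 1928, 1586 and 1742 in untreated and 1084, 1139 and 1553 in treated mice. Its groups did not overlap, at -0.49 ± 0.16 with and -0.49 ± 0.18 without untreated mouse 3, and Mpo gave 0.12 ± 0.10. The lowest intensity on any array was 0.66, so a marker at 0 could not occur. Cnn1 and Tagln of the smooth muscle list were listed at 1 on at least 1 array. Gja5, which is in the arterial and other endothelial lists, was also at 1 or less.

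**Figure D4:**
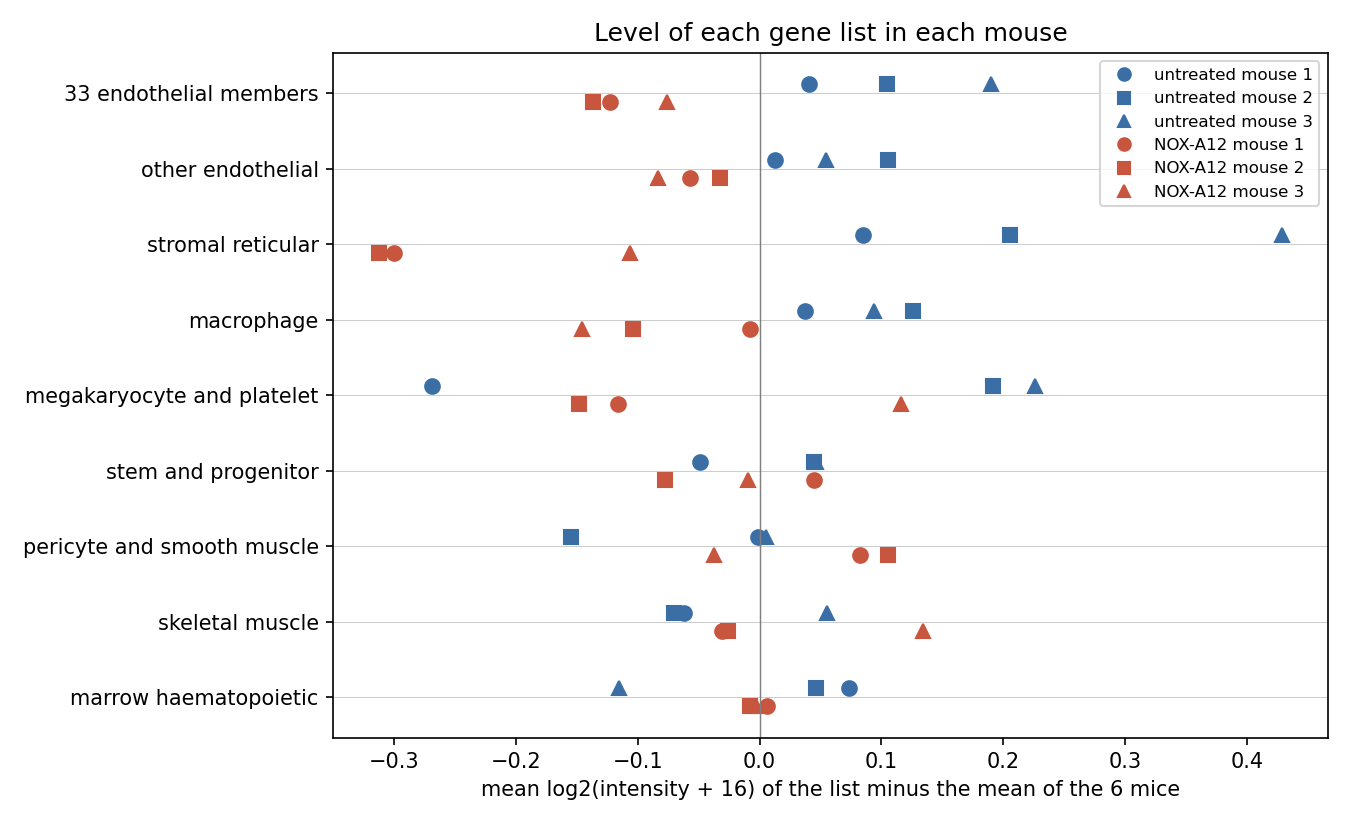
Each row is a gene list and each symbol a mouse, placed by the list's mean log2(intensity + 16) minus the mean of the 6 mice. For the 33 endothelial genes the untreated mice lie from 0.04 to 0.19 and the NOX-A12 mice from -0.14 to -0.08, and the stromal reticular list is spread the same way over a wider range.

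Other probe sets of the same genes were examined, since 16 of the 33 genes had more than 1. These genes had 25 further probe sets, of which 20 were lower and 5 higher, where 50.1% of all probe sets were lower, and 19 had the sign of the probe set used. At an unadjusted limma p under 0.05, 4 of them were lower, those of Adgrf5, Aplnr, Egfl7 and Mmrn2, where 3.1% of all probe sets were, and 0 were higher, where 1.88% were. Of the 10 brighter than the median probe set, 9 were lower, the exception being one of Myct1 at 0.12 ± 0.16. Stab2, Plvap, Cldn5 and Esm1 each had only the probe set used, so their values have no second reading on these arrays.

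**Figure D5:**
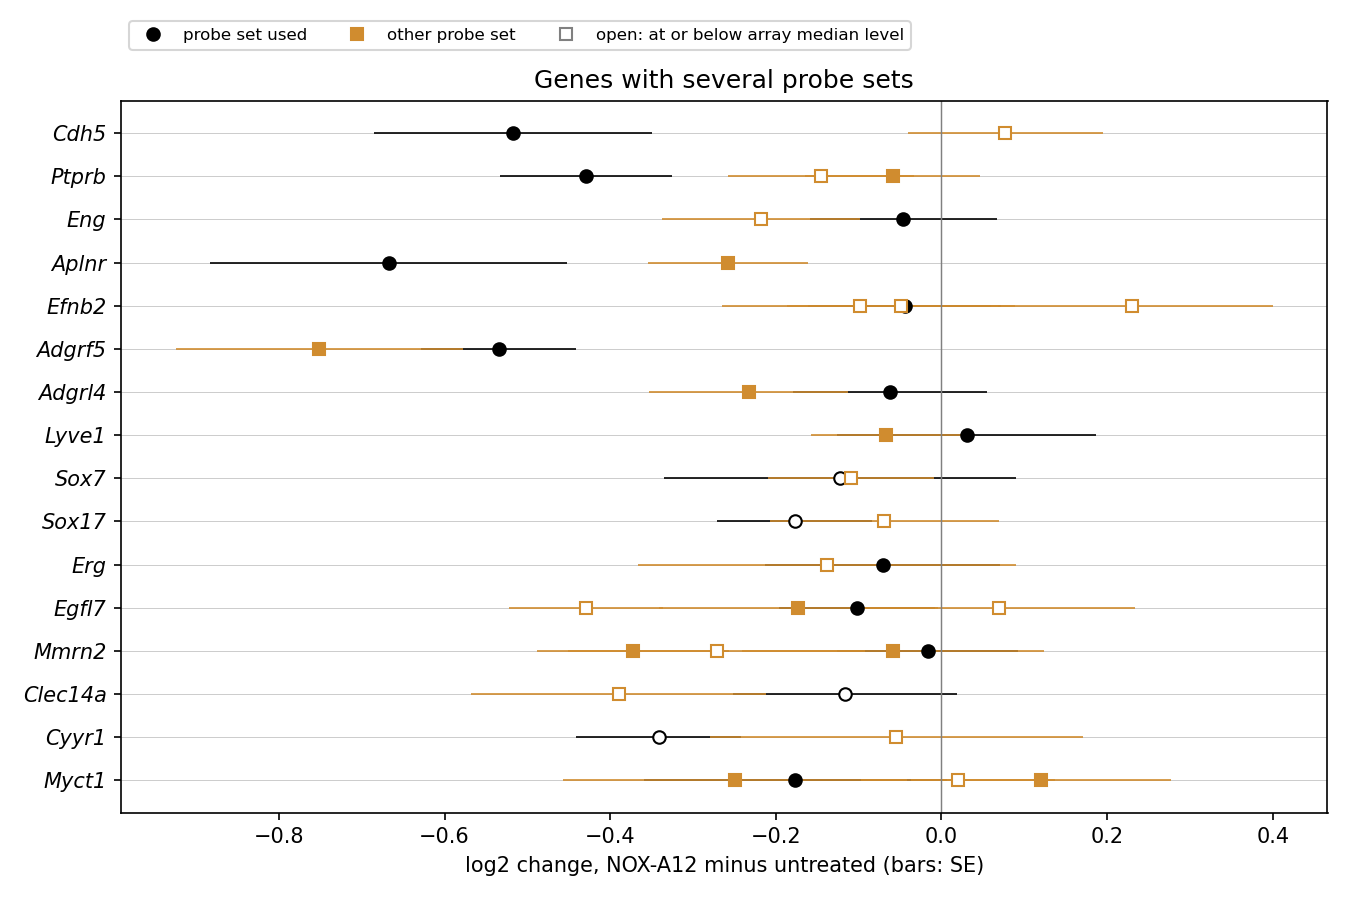
Each row is an endothelial gene with several probe sets; black circles are the probe set used and orange squares the others, by log2 change with SE bars, and open symbols are at or below the median level. Adgrf5 and Aplnr lie left of 0 at both of their probe sets, while the dim second probe set of Cdh5 lies at 0.08.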

How the data were processed

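Total RNA of whole marrow was hybridised as biotin-labelled cRNA, per the labels' protocols. The authors' deposited table gives an intensity per probe set on a linear scale; their normalization method is not given in the sources used here. Titles number separate mice. Of 45037 probe sets, 34945 name 1 gene in the platform annotation. Values were transformed to log2(intensity + 16), a scale that compresses changes of dim probe sets, and tested with lmFit and eBayes of limma 3.58.1 (R 4.3.3) on all 6 arrays, two-sided and with treatment as the only term. P-values were adjusted by Benjamini-Hochberg over all probe sets, with a threshold of 0.05. The fit was tested on simulated data. Errors of changes are SE, and 3 mice a group limit the precision. Members and lists were chosen with earlier results of these data known, so lists are described by counts and medians, with no test. All 33 genes are named; of other endothelial genes the 6 with the smallest p, with Flt4, Nr2f2, Gja4, Gja5, Kdr and Vwf; of each list of other cells the 2 with the smallest p. Bmx, Dll4, Nos3, Camp, Cnn1 and Tagln were named after their values were seen. Alternatives were offsets of 1 and 64, quantile normalization or centring on medians, leaving out dim probe sets, trend and robust variances, array weights, a mouse-number block, leaving out each mouse, and other choices of probe set; medians of other lists and changes of other named genes without untreated mouse 3 were added after the data were seen.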

Additional observations from a re-analysis of the deposited data

How the results depend on the processing

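None of the 33 genes, measured in 3 mice a group, was called under any alternative: their lowest limma adjusted p was 0.604. In the main fit 0 probe sets passed anywhere on the array. For the 9 genes with an unadjusted limma p under 0.05, 147 of 148 recomputed values kept their direction. The exception was Cdh5 at its second probe set (0.077). In these 9 genes every treated mouse lay below every untreated mouse. Leaving out a mouse, another offset, array weights or other variances therefore could not reverse their sign, so this count is not a test of direction. The titles give both groups mouse numbers 1 to 3 and do not say whether same-numbered mice were matched. Deviations of same-numbered mice correlated at -0.09, 0.05 and 0.03, which cannot show whether they were. With the mouse number as a block, 9 genes were lower at an unadjusted limma p under 0.05, as without it. The share of all genes with the block was not computed.

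With an offset of 64 the median of the 33 was -0.081. The filter on dim probe sets left an arterial median of -1.2e-04 over 2 genes and 17 of 22 other endothelial genes lower. Probe sets of second highest mean existed for 16 genes: 13 were lower, 3 at an unadjusted limma p under 0.05 and 4 without overlap. Of all 45037 probe sets, 50.1% were lower, 3.1% were lower at such a p, and 2635 were lower without overlap. At second probe sets the medians were -0.041 for 4 sinusoidal and venous and 0.082 for 3 arterial genes. There 6 of 14 other endothelial genes were lower. Leaving out 1 mouse gave 3 to 7 genes higher and an arterial median from -0.15 to 0.0046. Without untreated mouse 3 the median was 0.011 for megakaryocyte and platelet, 0.090 for skeletal muscle and -0.018 for marrow blood-cell genes, and Gja4 gave 0.069 and Bmx -0.087.

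Of the 33 genes, 23 changed sign or moved by over 1.5 times when 1 mouse was left out, among them 1 of the 9, Aplnr at -0.44 without untreated mouse 3. Of the 33, 14 changed sign under some alternative. Pecam1 gave 0.0034 with quantile normalization and 0.011 with an offset of 1, and array weights gave 0.016 for Eng and 0.046 for Mmrn2. At second probe sets Efnb2 gave 0.23, Lyve1 -0.067 and Myct1 0.12, the last also without probe sets of the _x_at and _s_at types. Means over a gene's probe sets gave 0.0096 for Efnb2 and -0.019 for Lyve1. Leaving out 1 mouse gave ranges of -0.25 to 0.15 for Pecam1, -0.13 to 0.021 for Efnb2, -0.14 to 0.13 for Lyve1, -0.21 to 0.025 for Erg, -0.37 to 0.058 for Tie1, -0.071 to 0.086 for Ramp2, -0.14 to 0.0029 for Adgrl4, -0.12 to 0.019 for Eng, -0.27 to 0.029 for Gpihbp1, -0.10 to 0.065 for Mmrn2, -0.064 to 0.0089 for Emcn and -0.25 to 0.11 for Sox7. The cause of these changes was not tested. Fewer genes were counted under the filter and at second probe sets.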
